A study of Rattus norvegicus with 5 samples.

Results

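Gpha2, Abcg2 and Tfcp2l1 are genes read as markers of the limbus and its progenitor cells, and Spdef, Agr2, Wfdc2, Pigr and Tff3 are genes of conjunctival and other secretory epithelium. The 8 genes were named by symbol, with earlier results of these data known, and each had a row of its own in a table of 20339 genes. They were counted in whole corneas of 5 male Sprague-Dawley rats aged 6 months: 3 wild-type rats and 2 transgenic P1 hMR rats, which carry human NR3C2, the mineralocorticoid receptor gene, in addition to the rat gene. Neither group is said to have had any treatment, and the number of founder lines and the litters are not given in the sources used here. P1 is the usual name of the proximal promoter of the human gene, though the labels do not spell out what drives the transgene. Each library is taken as 1 rat, and each p-value sets the group difference against an estimate of the spread between these samples. That estimate rests on 3 and 2 libraries.

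The limbus is the rim where cornea meets conjunctiva. Its basal epithelium holds the progenitor cells that renew the corneal surface, and their daughters move towards the centre while they take on corneal keratins. The conjunctiva beyond it is a mucosa with goblet cells and with epithelium that passes antibodies into the tear film, and it is fed by vessels that the central cornea lacks. A dissected cornea can therefore hold more or less of this rim, and the 2 transgenic corneas were set beside each other for that reason.

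Library totals ran from 20874010 to 30449675 counts, and Krt12, the keratin of corneal epithelium, took 3.33% to 4.49% of them, so the libraries carry the defining corneal marker. Human NR3C2 had 0 counts in each wild-type library and 1094 and 1146 counts in transgenic corneas 1 and 2, as their labels say. Levels below are CPM, counts scaled to a common library size by TMM. They are not divided by transcript length, so they compare libraries and not genes. In whole tissue, fewer cells of a type and less RNA per cell cannot be told apart.

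The stretch of 250 bases before the annotated start was taken for all 8 members from RefSeq (build GRCr8, whereas the submitters' notes name rn6). Those of Gpha2, the member with by far the most reads, and of Wfdc2, the member with the highest ratio between the transgenic corneas, are shown here 5′ to 3′ on the gene's strand. Capitals mark a CACCC box, the CCACCC element that Krüppel-like factors such as Klf4 and Klf5 can bind, on either strand. Gpha2 lies at chr1:212955137-212955386 on the plus strand, with the match starting at base -227 from the start site. Wfdc2 lies at chr3:173706225-173706474 on the plus strand, with the reverse letters GGGTGG starting at base -195.
Gpha2: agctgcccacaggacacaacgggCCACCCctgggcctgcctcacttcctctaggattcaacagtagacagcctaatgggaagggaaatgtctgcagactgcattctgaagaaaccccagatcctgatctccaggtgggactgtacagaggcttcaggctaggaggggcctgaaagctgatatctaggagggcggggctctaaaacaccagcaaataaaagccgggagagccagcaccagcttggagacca
Wfdc2: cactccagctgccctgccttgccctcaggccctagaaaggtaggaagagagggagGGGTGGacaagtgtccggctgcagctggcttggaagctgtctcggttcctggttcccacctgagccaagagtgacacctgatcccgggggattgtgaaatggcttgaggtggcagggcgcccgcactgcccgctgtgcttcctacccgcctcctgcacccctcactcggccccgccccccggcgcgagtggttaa

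Among the 8 upstream stretches 3 held the CACCC box, those of Gpha2, Wfdc2 and Tff3, against 26.1% of 33469 rat promoters of the same length. The half-site AGAACA of steroid receptors (reverse TGTTCT) was in none of the 8, against 17.5% of all promoters. CCGGAT (reverse ATCCGG), a site with the GGAT core that Spdef prefers, was in none of the 8 against 5.51%, and TATAAA (reverse TTTATA) was in that of Tff3 alone against 12.9%. These are matches of letters only and say nothing of binding.

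Gpha2 encodes the alpha subunit of the glycoprotein hormone thyrostimulin and is a marker of quiescent limbal epithelium. It had 635, 543 and 607 CPM over wild-type corneas 1 to 3 against 637 and 627 CPM for transgenic corneas 1 and 2. Wild-type cornea 2 was the lowest, transgenic cornea 1 lay just above wild-type cornea 1, and the genotypes overlapped. The means were 595 ± 47.3 CPM (SD, n = 3) and 632 ± 7.37 CPM (SD, n = 2), a log2 fold change of 0.09 ± 0.11 (SE). That difference did not pass the edgeR quasi-likelihood test (adjusted p = 0.913 over all genes tested).

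Abcg2, the efflux pump behind the side population assay for stem cells, had few reads. Wild-type corneas 1 to 3 gave 24, 23 and 32 raw counts, and transgenic corneas 1 and 2 gave 33 and 49. Scaled levels, in the same order, were 0.866, 1.12 and 1.46 CPM against 1.27 and 1.56 CPM. Transgenic cornea 1 lay within the wild-type range and transgenic cornea 2 just above it. The log2 fold change of 0.31 ± 0.40 did not pass the edgeR test (adjusted p = 0.916). It was 0.14 without wild-type cornea 1 and 0.52 without wild-type cornea 3.

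Tfcp2l1 is a transcription factor of the grainyhead and CP2 family, known in naive pluripotent cells and in duct and other epithelia. It had 4.26, 5.67 and 7.78 CPM over wild-type corneas 1 to 3 against 6.78 and 9.61 CPM for transgenic corneas 1 and 2. Transgenic cornea 1 lay between wild-type corneas 2 and 3, and transgenic cornea 2 was the highest of all 5. Its log2 fold change was 0.48 ± 0.27 (edgeR adjusted p = 0.835), and it ran from 0.21 without transgenic cornea 2 to 0.73 without wild-type cornea 3.

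Spdef, the ETS factor that drives goblet cell maturation, varied most within wild-type. It had 2.82, 0.440 and 3.69 CPM over wild-type corneas 1 to 3 against 1.50 and 1.88 CPM for transgenic corneas 1 and 2. Wild-type cornea 2, with 9 counts, was far below the other wild-type corneas, and both transgenic values lay between. The wild-type coefficient of variation was 72.6% for Spdef, against 30.0% for Tfcp2l1, 25.7% for Abcg2, 18.3% for Wfdc2, 7.95% for Gpha2 and 7.16% for Pigr. The log2 fold change of -0.46 ± 0.75 did not pass the edgeR test (adjusted p = 0.940), and without wild-type cornea 3 it was 0.03.

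Pigr, the receptor that carries dimeric IgA and IgM across epithelium, was the secretory member read in depth, with 749 to 1119 counts a library. It had 33.4, 36.6 and 38.5 CPM over wild-type corneas 1 to 3 against 29.1 and 35.6 CPM for transgenic corneas 1 and 2. Transgenic cornea 1 was the lowest of all 5 and transgenic cornea 2 lay inside the wild-type range. The means were 36.2 ± 2.59 CPM (SD, n = 3) and 32.4 ± 4.60 CPM (SD, n = 2). The log2 fold change was -0.16 ± 0.12 (edgeR adjusted p = 0.865), -0.31 without transgenic cornea 2 and -0.02 without transgenic cornea 1.

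Wfdc2, a secreted protein with whey acidic protein domains made by glandular and airway epithelium, stood out in 1 library. It read 1.52, 1.37 and 1.05 CPM over wild-type corneas 1 to 3, 1.23 CPM in transgenic cornea 1 and 2.64 CPM in transgenic cornea 2. Transgenic cornea 2 was the highest of all, with 83 counts against 23 to 42 in the others. Its 95% exact Poisson interval, 2.10 to 3.27 CPM, did not overlap the interval of wild-type cornea 1, 1.09 to 2.05 CPM, the next highest. That gap is narrow and holds for the gene rows. Intervals were not computed for the isoform sums, which are lower in both libraries. Such intervals leave out the spread between rats. Reads without molecular identifiers can be copies of 1 molecule, so the intervals can be too narrow even for counting error. The log2 fold change of 0.57 ± 0.41 did not pass the edgeR test (adjusted p = 0.861). It rested on that library, being -0.09 without it and 1.00 without transgenic cornea 1.

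The authors' isoform table lists a pair of named isoforms of Wfdc2. The major one had 38.06, 28 and 13.55 counts over wild-type corneas 1 to 3 against 22.68 and 55.59 for transgenic corneas 1 and 2. The minor one was estimated at 0 in each wild-type library and at 6.77 and 16.49 counts in transgenic corneas 1 and 2. In every library but wild-type cornea 2 the pair sums to less than the gene row, so some Wfdc2 reads are on neither. These are estimated shares of few reads, and isoforms were not tested. The other 5 members with reads above a single count each had all of them on 1 named isoform.

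Agr2, the disulfide isomerase that mucus-secreting cells need to fold mucins, and Tff3, the trefoil peptide of goblet cells, were all but unread. Agr2 had 1 count in wild-type cornea 1, 1 in transgenic cornea 2 and 0 in the other 3 libraries. Tff3 had 0 counts in all 5, which allows up to 0.0955 to 0.147 CPM by library (3 counts). Neither entered the tests. The goblet cell part of the secretory label was thus not borne out by these markers, though Spdef had some reads. The goblet cell mucin genes Muc5ac and Muc2 had no row under these symbols in the counts used here, so their levels are not known. Pigr, which epithelia without goblet cells also express, was read in every library.

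**Figure D1:**
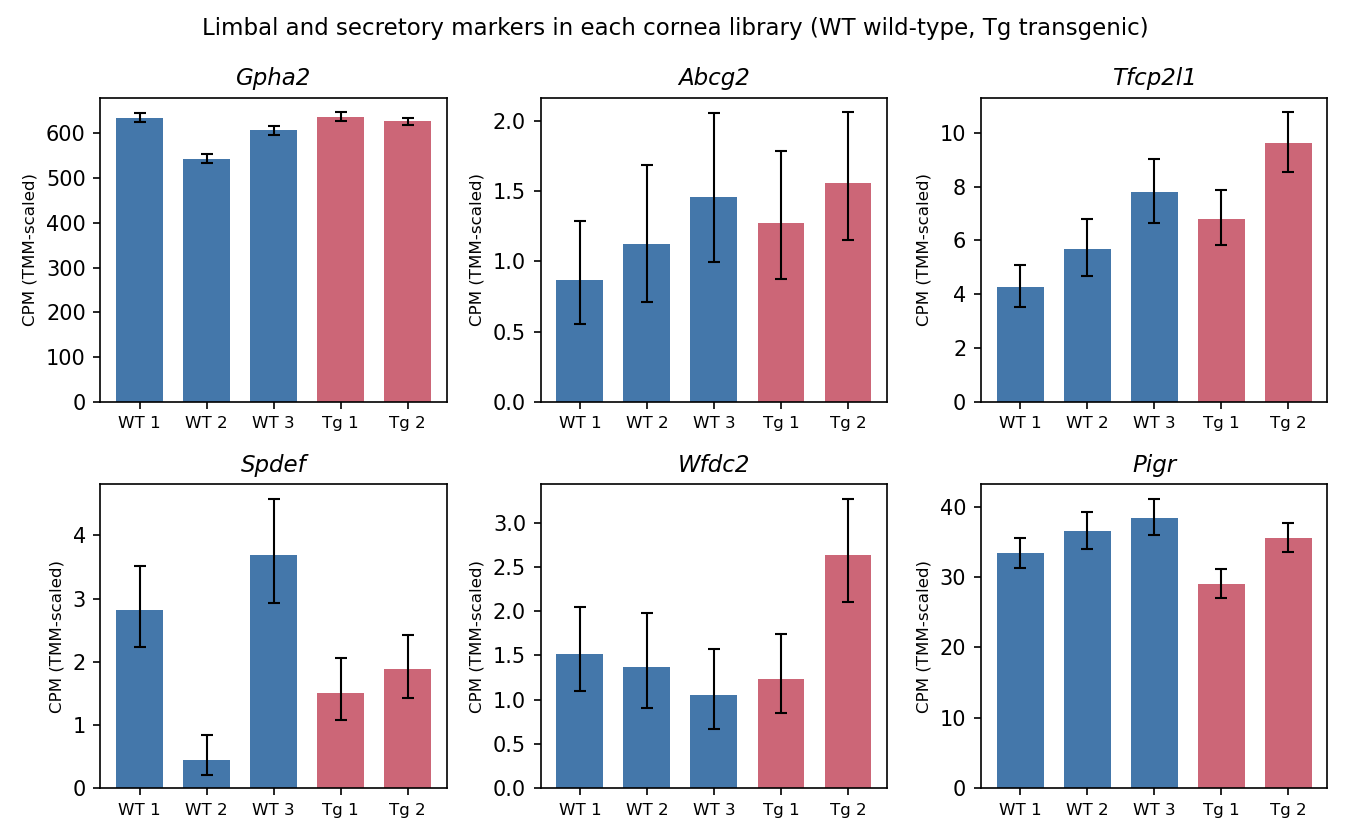
Scaled level (CPM) of the 6 members that passed the low-count filter in each wild-type (WT, blue) and transgenic (Tg, red) library; bars start at 0 and error lines are 95% exact Poisson intervals of the count. Gpha2 lies between 543 and 637 CPM everywhere, Spdef is lowest in wild-type cornea 2 at 0.440 CPM, and Wfdc2 is highest in transgenic cornea 2 at 2.64 CPM.

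Between genotypes, then, 0 of the 6 members that entered the test passed it. The edgeR test called 0.00751% of 13307 genes, which is NR3C2 alone. At an unadjusted p under 0.05 it had 0 of 6 members against 6.33% of all genes, and DESeq2 and limma voom also called 0 members. No member had both transgenic values above all wild-type values, which 12.0% of tested genes had, or below them, which 10.7% had. The 3 limbal members all had positive log2 fold changes, with a median of 0.31. Of the 3 secretory members tested, Wfdc2 had a positive and Spdef and Pigr a negative one, with a median of -0.16, and the median of all tested genes was -0.01. With 2 transgenic rats and 23 to 83 counts a library for Abcg2 and Wfdc2, differences of the size seen could not be told from the spread between rats.

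**Figure D2:**
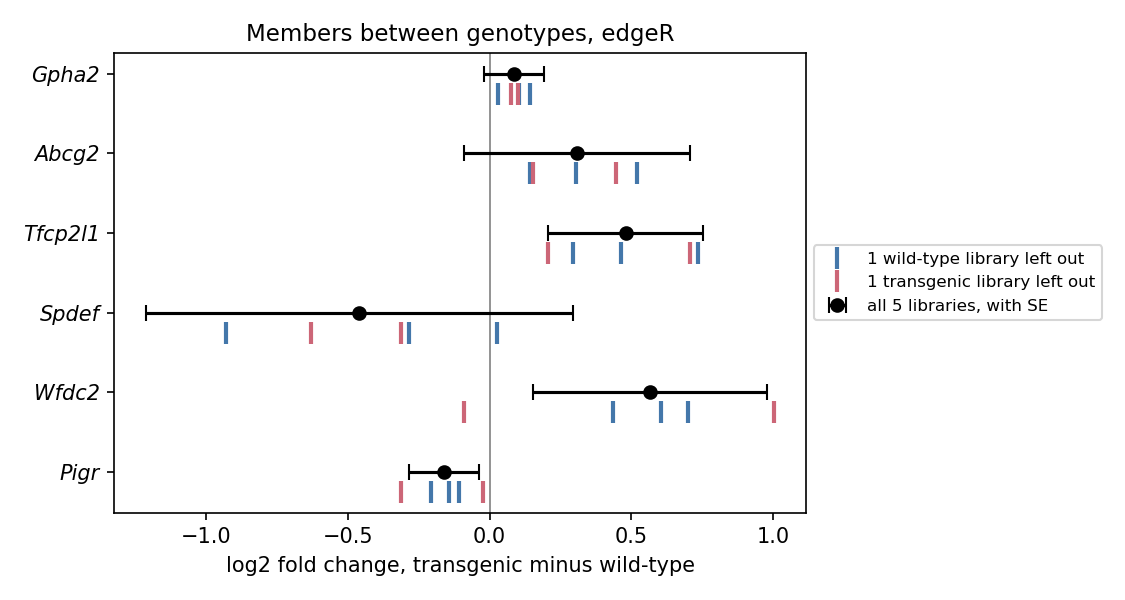
Log2 fold change (transgenic minus wild-type, edgeR) of the 6 tested members with its SE, and, as ticks below each, the value with 1 wild-type (blue) or 1 transgenic (red) library left out. Gpha2 stays between 0.03 and 0.14, while Wfdc2 runs from -0.09 to 1.00 and Spdef from -0.93 to 0.03.

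Between the 2 transgenic corneas the interval of the ratio excluded 1 for Wfdc2, Tfcp2l1 and Pigr, while that of Gpha2 held 1. The share of all tested genes with such an interval was not computed, so this does not set the members apart. Among other limbal genes, Tp63 (1.027 to 1.085) and Lrig1 (0.894 to 0.946) excluded 1 too, and Bmi1 (0.985 to 1.182) held it. With 1 library on each side there is no test, and each ratio of CPM (transgenic cornea 2 over 1) is given with an exact 95% interval of the same kind. Gpha2 had a ratio of 0.984 (0.963 to 1.004). This ratio is above 1 when libraries are scaled by their totals alone, where its log2 value is 0.04. It then lies above the interval given, so whether that interval holds 1 depends on the scaling. With TMM scaling the 3 limbal members gave no common answer: Abcg2 had 1.23 (0.773 to 1.97) and Tfcp2l1 1.42 (1.17 to 1.72).

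Among secretory members Wfdc2 had the highest ratio, 2.14 (1.41 to 3.33). Pigr had 1.22 (1.11 to 1.34) and Spdef 1.25 (0.820 to 1.92). For scale, the highest wild-type value over the lowest was 1.45 for Wfdc2, 1.15 for Pigr, 1.83 for Tfcp2l1, 1.68 for Abcg2, 1.17 for Gpha2 and 8.37 for Spdef. The ratio between the transgenic corneas was therefore wider than the wild-type range for Wfdc2 and Pigr and narrower for the other 4. On the log2 scale with 0.5 CPM added, 5 of 6 members were higher in transgenic cornea 2, as were 50.3% of all tested genes. No member was at least 2-fold apart on that scale, which damps low levels: 1.11% of genes were at least 2-fold higher and 0.834% at least 2-fold lower in transgenic cornea 2. Wfdc2, at 0.86, was exceeded by 1.89% of tested genes, and Tfcp2l1, at 0.47, by 7.91%.

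Of the other genes in the limbal and conjunctival lists, a few keratins differed widely between the same corneas, while most genes did not. Krt15, a keratin of basal limbal and conjunctival epithelium, read 423, 368 and 423 CPM over wild-type corneas 1 to 3, 202 CPM in transgenic cornea 1 and 607 CPM in transgenic cornea 2. Krt19, a keratin of conjunctival and limbal epithelium, had 19.2, 18.3 and 20.3 CPM in the wild-type corneas against 7.94 and 30.1 CPM in the transgenic pair. For both keratins transgenic cornea 1 was below and transgenic cornea 2 above all 3 wild-type corneas. The ratios were 3.00 (2.91 to 3.09) for Krt15 and 3.80 (3.26 to 4.44) for Krt19, where the wild-type ranges spanned 1.15 and 1.11. Both values come from isoform rows, and reads of related keratins are divided by estimate.

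Between genotypes these opposite deviations cancelled in the group means. The log2 fold change was 0.00 ± 0.52 for Krt15 and -0.01 ± 0.60 for Krt19, with edgeR adjusted p of 1 and 0.999. Without transgenic cornea 2, Krt15 passed as lower in the remaining transgenic cornea (log2 fold change -0.998, edgeR adjusted p = 0.0373). In that fit the lone transgenic library is assumed to vary as the wild-type ones do.

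Among the other keratins of these lists, of which Krt4, Krt14 and Krt7 were picked with their values seen, the order varied. Krt13 had 1985 and 3947 CPM in transgenic corneas 1 and 2 (ratio 1.99, 1.97 to 2.01), against 1607 to 2820 CPM in wild-type. Krt4, its partner in mucosal epithelium, had 915 and 1561 CPM (1.71, 1.68 to 1.73), against 1017 to 1372 CPM in wild-type. Krt14, the keratin of basal layers, had 1280 and 1972 CPM, against 1530 to 1595 CPM in wild-type. Krt12 went the other way, from 45485 to 32232 CPM (0.709, 0.707 to 0.711), and wild-type corneas had 37472 to 45072 CPM. Krt5, the basal partner of Krt14, likewise went from 37201 to 29997 CPM, and Krt7, a simple epithelial keratin of the conjunctival list, from 227 to 127 CPM.

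**Figure D3:**
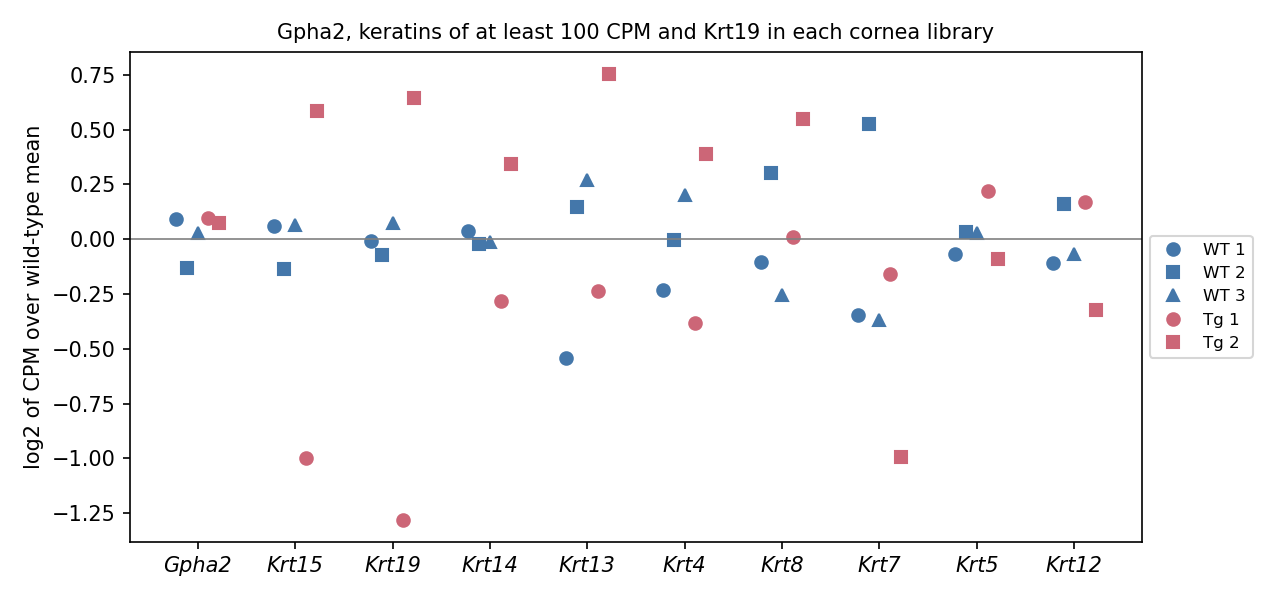
Level of Gpha2, of the keratins with at least 100 CPM in the limbal, conjunctival and corneal lists, and of Krt19, as log2 of CPM over the wild-type mean, with 1 point for each library. Krt15 and Krt19 lie close together in wild-type and apart in the transgenic pair (202 and 607 CPM for Krt15), while all 5 Gpha2 points lie within 543 to 637 CPM.

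The list of other limbal basal and progenitor genes had 20 of 22 genes tested. Between genotypes 13 were higher and 7 lower, the median log2 fold change was 0.07, and 0 passed the edgeR test, with 1 at an unadjusted p under 0.05. That gene was Ifitm3, an interferon-induced membrane protein also used as a limbal marker, with a log2 fold change of -0.58 ± 0.11 (edgeR adjusted p = 0.405). DESeq2 called it, with an adjusted p of 0.00454. Between the transgenic corneas 14 of 20 were higher in cornea 2, with a median log2 ratio of 0.07 against 0.00 for all genes. Besides Krt15, Itga9, an integrin subunit of the limbal basal layer, was at least 2-fold apart, and in the opposite direction. It had 13.1 CPM in transgenic cornea 1 and 4.23 CPM in transgenic cornea 2, against 5.14 to 5.19 CPM in wild-type. Sox9, a progenitor transcription factor, had 6.40 and 11.6 CPM in transgenic corneas 1 and 2, and Tp63, the master factor of stratified epithelium, 347 and 366 CPM. The list as a whole was therefore not uniformly higher in transgenic cornea 2.

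The conjunctival and goblet cell list had 17 of 29 genes tested, with 6 higher and 11 lower in transgenic corneas, a median log2 fold change of -0.10 and 0 called by edgeR. At an unadjusted p under 0.05 there were 2 of 17, against 6.33% of all tested genes: Gcnt3, a glycosyltransferase of mucin chains, and Krt18. Gcnt3 had 20.0 to 26.2 CPM in wild-type against 15.5 and 16.4 CPM in the transgenic pair (a log2 difference of -0.53 ± 0.14, edgeR adjusted p = 0.493). Krt18, a keratin of simple epithelium, had 3.23 to 4.10 CPM in wild-type against 4.39 and 6.68 CPM (0.62 ± 0.26, edgeR adjusted p = 0.769). Between the transgenic corneas 10 of 17 were higher in cornea 2, with a median log2 ratio of 0.08. Krt19 and Fcgbp, a mucus protein that binds IgG, were at least 2-fold higher, Fcgbp with 6.98 and 16.2 CPM against 9.54 to 17.6 CPM in wild-type.

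Several genes of that list tied to goblet cells were at or near 0 in all corneas, as Tff3 and Agr2 were. The list was mixed, since others were read in every library. Among these, St6galnac1 had 9.48 to 14.1 CPM and Galnt6 22.2 to 36.0 CPM. In that list 7 genes had 0 counts in every library, among them the trefoil peptides Tff1 and Tff2, the factor Foxa2, the goblet cell stress sensor Ern2 and the lectin Zg16. The gel-forming mucin gene Muc5b had 5 counts in transgenic cornea 2 and 0 in the other 4 libraries. Creb3l1, a secretory factor that fibroblasts also express, had 5.23 to 10.6 CPM over the 5 libraries. Foxa1 had 1.05 to 1.54 CPM.

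**Figure D4:**
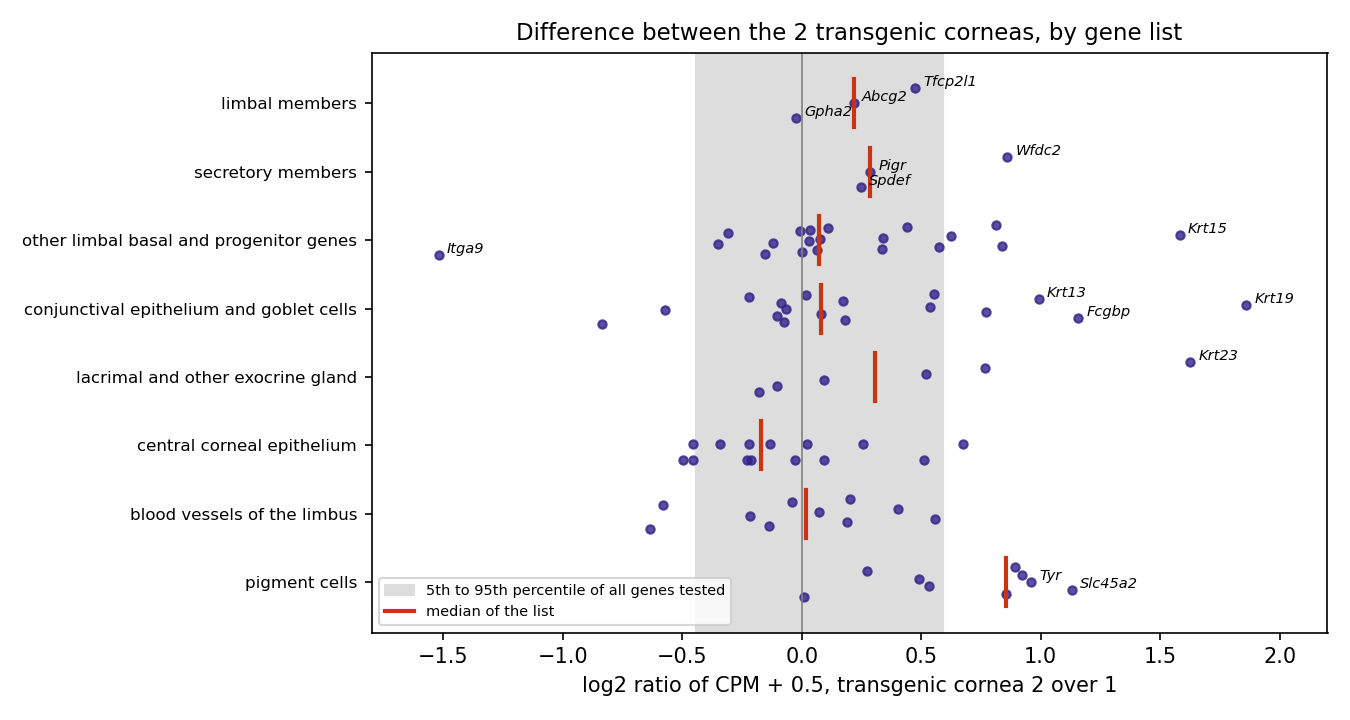
Log2 ratio of CPM + 0.5 between transgenic corneas 2 and 1 for every tested gene of 8 lists, with the list's median in red and the 5th to 95th percentile of all tested genes (-0.44 to 0.59) in grey. Wfdc2, Krt15, Krt19, Krt13 and Fcgbp are among the genes to the right of the grey band, Gpha2 lies at -0.02 and Itga9 at -1.52.

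Genes of other cell types that a limbal rim or neighbouring tissue could bring also differed between libraries, and their part in the results above was not tested. Pigment cell genes had the highest median ratio of any list between the transgenic corneas: 9 of 9 tested were higher in cornea 2, with a median log2 ratio of 0.86. Their summed level was 176 to 225 CPM in wild-type against 251 and 327 CPM for transgenic corneas 1 and 2, and no gene of the list was at 0 in all libraries. Between genotypes 8 of 9 had a positive log2 fold change, with a median of 1.98. At an unadjusted edgeR p under 0.05 were 5 of 9, against 6.33% of all tested genes. Trpm1, a cation channel of melanocytes, had 3.62 to 7.37 CPM in wild-type against 12.5 and 17.7 CPM. Gpnmb, a melanosome protein that macrophages share, had 163 to 185 CPM against 158 and 159 CPM. Much of each summed level was thus Gpnmb, and the sums damp the differences of the other pigment cell genes. DESeq2 called Trpm1 (adjusted p = 0.0332), while edgeR did not (adjusted p = 0.493). Blood vessel genes, which mark the vascular limbus, were higher in cornea 2 in 5 of 10, with a median log2 ratio of 0.02. Between genotypes 9 of 10 had a positive log2 fold change, with a median of 0.32. At an unadjusted edgeR p under 0.05 were 2 of 10, against the same 6.33%. Their sums were 76.6 to 96.2 CPM in wild-type against 107 and 97.9 CPM for transgenic corneas 1 and 2. Of 5 lymphatic genes tested, 4 were higher in cornea 2, with sums of 33.8 and 35.2 CPM against 31.1 to 37.5 CPM in wild-type.

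Plasma cell and lymphocyte genes, whose antibodies Pigr carries, were scarce. Of 14 measured genes, 4 were tested, and Ms4a1 and Cd79b, which mark B cells, had 0 counts throughout. The exception was Sdc1, which epithelium also expresses, with 77846 to 103849 counts a library. Jchain, the chain that joins the antibodies bound by Pigr, had 36, 26 and 16 counts over wild-type corneas 1 to 3 against 29 and 14 for transgenic corneas 1 and 2, so it did not follow Pigr between the transgenic pair. Of 20 exocrine gland genes listed, 12 were measured. Among those, 6 were tested and 5 were at 0 in every library, Scgb1a1, Pip and Smgc included. The list was mixed, since Aqp5 had 4710 to 5828 CPM, Slc12a2 341 to 457 CPM and Lyz2 11.8 to 24.5 CPM. Slc12a2 had the smallest p of the list between genotypes (log2 fold change -0.26 ± 0.11, edgeR adjusted p = 0.777). Krt23, of that list, had 0.694 and 3.18 CPM in transgenic corneas 1 and 2 and 16.5 CPM in wild-type cornea 1. The central epithelium list had 5 of 14 genes higher in transgenic cornea 2, with a median log2 ratio of -0.17.

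Among the remaining lists, medians of the log2 ratio between transgenic corneas 2 and 1 were 0.06 for stroma, 0.03 for corneal endothelium, -0.10 for dividing cells, 0.19 for lid skin, 0.30 for skeletal muscle and -0.45 for lens. Their medians between genotypes included 0.34 for stroma and -2.64 for lens. At an unadjusted edgeR p under 0.05 were 4 of 9 and 3 of 10 genes of these, against 6.33% of all tested genes. The stroma median was 0.26 without transgenic cornea 2 and 0.51 without transgenic cornea 1, and the lens median was -1.15 without wild-type cornea 1. None of the genes of these lists passed the edgeR test between genotypes. DESeq2 called the stromal collagen gene Col5a1 (adjusted p = 0.000662) and the crystallin gene Cryba2 (0.0145). With the replicate block edgeR called Angptl7, Cryba2 and Crybb2, and no erythrocyte gene was tested. Summed lens and skeletal muscle genes were highest in wild-type cornea 1, with 153 CPM and 32.3 CPM against at most 35.1 and 24.3 CPM in the other libraries. Krt23 was highest there too, while Tnnt3, of the muscle list, was highest in transgenic cornea 2 at 13.0 CPM. Whether neighbouring tissue was left on wild-type cornea 1, and whether it bears on any member, was not tested.

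Genes with the most similar pattern over the 5 libraries were ranked by Euclidean distance of log2 deviations among 11390 named genes of at least 1 CPM, as a description. For Gpha2 the nearest were Khnyn, Gnaq and Frs3, at distances of 0.035 to 0.048, and Gpha2 itself ranged over 0.23. For Wfdc2 they were Lgals1, Pdlim4 and Lgals7, at 0.19 to 0.21 with an own range of 1.02. The galectin genes Lgals1 and Lgals7 had 20.7 and 98.1 CPM in transgenic cornea 2, and at most 15.9 and 63.0 CPM elsewhere. Tfcp2l1 was nearest to Cnnm2, Golim4 and Phip (0.14 to 0.15), Pigr to Slc35b2, Ddx46 and Ggps1 (0.064 to 0.088) and Abcg2 to Rps6kl1, Klhl29 and Zkscan8 (0.032 to 0.053). Spdef, with an own range of 2.15, had no close neighbour, the nearest being Unc80 at 0.65. Distances are not scaled to a gene's range, so a wide range can enlarge them.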

How the data were processed

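RNA of 3 wild-type and 2 transgenic corneas was sequenced. As deposited by the authors, the values are estimated counts without normalization, in a gene table and an isoform table. The tools named in the submitters' processing notes, with no role, are RSEM 1.2.28, STAR 2.5.3a, fastp, FastQC, edgeR 3.28.0 and DESeq2 1.26.0, and the build is rn6. Estimated counts divide shared reads, so values of related keratins are uncertain. No source used here gives the strandedness.

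Counts were rounded, filtered by filterByExpr (minimum count 10), scaled by TMM and tested by the edgeR 4.0.16 quasi-likelihood F test in R 4.3.3 (robust, two-sided, Benjamini-Hochberg over 13307 genes, threshold 0.05). SE is the log2 fold change divided by the square root of F. The test was also run on counts simulated with spreads fitted to these same libraries, and its outcome is not given here. Changes were simulated only in genes of higher level than Abcg2, Wfdc2 and Spdef. Depth was 20874010 to 30449675 counts a library. The 4 list genes held only by isoform rows (among them Krt15 and Krt19) entered as sums, a choice made after seeing the tables. Ratios between the transgenic corneas have exact binomial intervals. Alternatives were RLE scaling, column totals, no filter, DESeq2 1.42.0, limma 3.58.1 voom, each library left out, a replicate block, other added CPM and isoform sums. The rule named all members, the genes of smallest p and highest mean in each list and list genes 2-fold apart between the transgenic corneas. For lists that no result turns on, counts, medians or sums stand in for names. Genes named outside the rule were chosen after their values were seen. Members and lists were chosen with earlier results of these data known.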

Additional observations from a re-analysis of the deposited data

How the results depend on the processing

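No member was called under any of the 12 alternatives of the genotype comparison, and Gpha2, Abcg2, Tfcp2l1 and Pigr kept their direction in all 12. The number of members at an unadjusted edgeR p under 0.05 did move. It was 1 with the replicate block, without wild-type cornea 2 and without wild-type cornea 3, against 0 with all libraries. Spdef changed direction with the replicate block (0.40) and without wild-type cornea 3 (0.026), and Wfdc2 without transgenic cornea 2 (-0.089); the cause was not tested. With a library left out the log2 fold change ran from -0.93 to 0.026 for Spdef and from -0.089 to 1.00 for Wfdc2. Genes called, 1 with all libraries, were 2 with no low-count filter, 53 with DESeq2, 16 with the replicate block and 2 to 36 with a library left out (36 without transgenic cornea 1). Whether shared replicate numbers pair the samples is not stated. Same-numbered deviations from the group mean correlated at 0.000545 and -0.105. With 2 transgenic libraries their deviations mirror each other, so these correlations cannot decide it. Between the transgenic corneas 1 member, Wfdc2, was at least 2-fold apart with 0.1 CPM added or, an alternative chosen after seeing the data, with nothing added, against 0 with 0.5 CPM. Depth limits Abcg2, Wfdc2 and Spdef, with 9 to 83 counts a library, and cannot show Agr2 or Tff3 below 3 counts.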

Other observations

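Gphb5, which encodes the beta subunit that joins the Gpha2 product in thyrostimulin, was looked up after the values of Gpha2 were seen. Wild-type corneas 1 to 3 gave 28, 73 and 33 counts and transgenic corneas 1 and 2 gave 16 and 44. The level was highest in wild-type cornea 2, where Gpha2 was lowest. Its log2 fold change was -0.97 ± 0.61 (edgeR adjusted p = 0.856). Tshr, the receptor of thyrotropin and thyrostimulin, had 3 counts in wild-type cornea 1, 6 in transgenic cornea 1 and 0 in the other 3 libraries.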
